A study of Mus musculus with 2 samples.

Results

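The genes described here encode the antigen presentation machinery of the mouse major histocompatibility complex (MHC, called H-2 in the mouse). They comprise every row of the deposited table whose symbol starts with H2-, apart from H2-Ke6, and B2m, Tap1, Tap2, Tapbp, Cd74 and Ciita. These are 50 of 54532 genes, namely 2 classical class I genes, 30 nonclassical class I genes and pseudogenes, 4 class I partners, 7 class II chain genes and pseudogenes, 5 class II loading genes and 2 class II partners. RNA was sequenced from niche cells of the bone marrow, which support blood stem cells, in 1 library labelled BMT and 1 labelled aGVHD_V. In both groups female CB6F1 recipients were irradiated with 2 doses of 4.0 Gy and received marrow cells of B6.SJL mice (CD45.1+) 4 hours later. The aGVHD_V recipients were additionally given spleen cells of female C57BL/6 mice, which establishes acute graft-versus-host disease (aGVHD), an attack of donor T cells on the tissues of the recipient. The recipients' age, the number of mice behind a library and the meaning of the V are not given. The labels describe a sort by depletion of CD45, lineage markers and CD71, with dead cells removed.

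MHC class I molecules display peptides from inside the cell to CD8 T cells. A heavy chain pairs with beta-2 microglobulin, and peptides are pumped into the endoplasmic reticulum by the TAP transporter. Class II molecules, which are found mainly on B cells, dendritic cells and macrophages, display peptides from engulfed proteins to CD4 T cells. MHC molecules are the main targets of donor T cells when donor and recipient differ at this locus, and interferon-gamma raises the transcription of both classes. The CB6F1 hybrid, a cross of BALB/c and C57BL/6, carries the H-2d and H-2b haplotypes, whereas B6.SJL and C57BL/6 donors carry H-2b only. The genome builds named by the submitters, GRCm38 and mm10, represent C57BL/6, so how reads of H-2d alleles were placed was not tested.

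With 1 library per group no difference has a replicate check and no test between the groups was made. The BMT library held 10869191 reads over genes, the aGVHD_V library 11299834. Levels are FPKM, the fragments counted on a gene scaled by its length and by the size of the library, and a gene was called measured where its FPKM reached 1 in either library. A difference is taken on the log2(FPKM + 1) scale as aGVHD_V minus BMT, and a value of 1 or more either way was counted as at least 2-fold. Intervals are 95% counting intervals of a ratio, widened because the reads of weakly expressed genes piled up at 14 (BMT) and at 44 (aGVHD_V), the most frequent low read numbers. They cover counting error only and no variation between mice. The floor, 3 such counts, is 42 and 132 reads, and a gene under it in either library has its values printed and no fold.

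The libraries differed strongly in the RNA of cell type markers. The 8 mesenchymal stromal markers had a summed FPKM of 553 (BMT) against 27.1 (aGVHD_V). All 8 were at least 2-fold lower, beside 19.4% of all measured genes. Lepr, which marks these stromal cells, and the endothelial markers Cdh5, Kdr, Cldn5 and Tek had no reads in the aGVHD_V library. Tek had only 93 BMT reads, fewer than the aGVHD_V floor of 132, so its level there could not be bounded below that of BMT. The 8 endothelial markers summed to 74.3 and 11.9, with 2 of them at or above the floor in both libraries. By the 2-fold measure 7 were lower, although the intervals of Tie1 and Tek included 1. The remaining marker, Emcn, was at 1.43 and 1.58, under the floor in the aGVHD_V library. Neutrophil markers were high in both (14662 and 19519 over 7 genes), and 6 erythroid markers summed to 37100.3 and 132008, although the labelled sort had removed blood cells. In the BMT library too, erythroid markers took 3.74% of reads and neutrophil markers 1.37%, against 0.410% for mesenchymal and 0.0273% for endothelial markers. The niche label was therefore only partly borne out by these markers in the BMT library, and weakly in the aGVHD_V library. Every level below describes all sequenced cells together. In such bulk RNA, fewer cells of a type and less RNA per cell cannot be told apart.

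Most expressed MHC genes lay at close to the same level in both libraries. Of the 50 genes, 30 had reads in at least 1 library, 29 were measured and 22 of these lay within 2-fold. In the aGVHD_V library 4 members lay at least 2-fold lower, beside 19.4% of all 12942 measured genes, and 3 were at least 2-fold higher, beside 8.65%. At these sizes both shares lie near the background, and 6 of the 7 genes were under the floor in at least 1 library. Among the 22 with an FPKM of 10 or more, 1 was lower and 1 higher, beside 7.63% and 7.08% of 5438 such genes. The median difference was -0.16 over the 29 measured genes and -0.07 over all measured genes. The interval of the ratio lay below 1 for 1 measured member (H2-Q6) and above 1 for none, beside 4.57% and 6.03% of all measured genes. The 50 genes together accounted for 1.01% of all BMT reads and for 0.816% of all aGVHD_V reads.

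**Figure D1:**
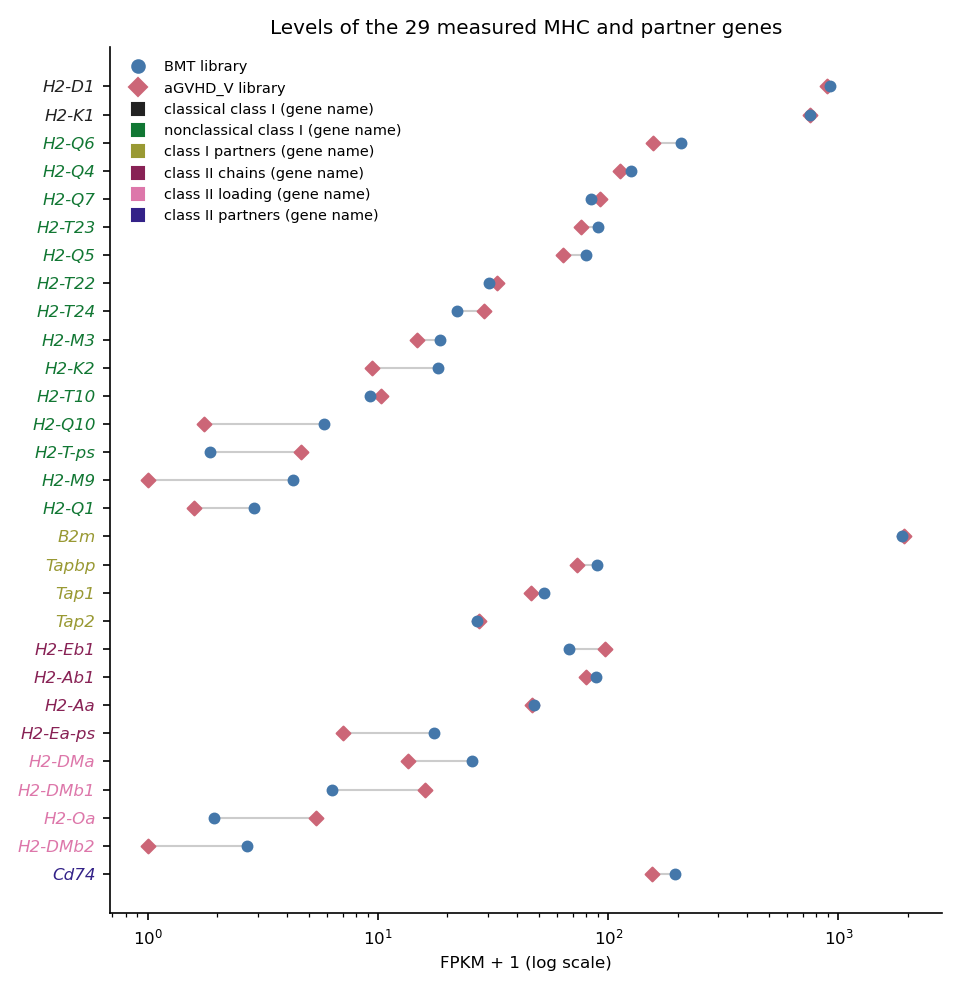
FPKM + 1 (log scale) of the 29 measured genes in the BMT library (circles) and the aGVHD_V library (diamonds), with gene names coloured by group. The classical class I genes and B2m are the highest and their symbols nearly coincide, whereas wide gaps occur in genes with an FPKM below 30 in both libraries.

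The direction of small differences depends on how the libraries are scaled. The authors' FPKM add up to 340171 for BMT and to 507958 for aGVHD_V. Rescaling each library to an equal sum moved every log2 ratio by -0.58, which puts all the class I groups and the summed class II genes below the BMT library. Library sizes of all recovered reads moved it by -0.24, and leaving out hemoglobin, mitochondrial and ribosomal protein genes by -0.17. Values below are as deposited, and ratios between genes within a library do not depend on this choice.

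The classical class I genes H2-K1 and H2-D1 encode the heavy chains that present peptides to most CD8 T cells. H2-D1 (ENSMUSG00000073411, chromosome 17, 35262730 to 35267499, plus strand, GRCm38) had 28672 reads and an FPKM of 917 in the BMT library, against 24453 reads and 889 in the aGVHD_V library. H2-K1 (ENSMUSG00000061232, chromosome 17, 33996017 to 34000333, minus strand) had 23846 reads and an FPKM of 754, against 20854 reads and 750.0. They were the 28th and 32nd most abundant of all genes in the BMT library and the 42nd and 52nd in the aGVHD_V library. The ratio of aGVHD_V to BMT was 0.970 (interval 0.882 to 1.07) for H2-D1 and 0.995 (0.897 to 1.10) for H2-K1, both including 1. These intervals exclude a 2-fold difference in either direction on counting error, and as deposited the summed ratio of the pair was 0.981, and 0.657 after rescaling to equal FPKM sums. H2-D1 exceeded H2-K1 by 1.22 times (1.14 to 1.297) in the BMT library and by 1.19 times (1.05 to 1.34) in the aGVHD_V library.

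B2m, the invariant light chain of every class I molecule, was the most abundant member. It had an FPKM of 1889 from 19696 reads in the BMT library and 1929 from 17685 reads in the aGVHD_V library, the 13th and 16th highest of all genes, with a ratio of 1.02 (0.912 to 1.14). Its transcript level was close to the sum of both classical heavy chains. The ratio of B2m to H2-K1 and H2-D1 together was 1.13 (1.06 to 1.202) in the BMT library and 1.18 (1.05 to 1.32) in the aGVHD_V library. The change of that ratio between the libraries was 1.04 (0.913 to 1.19), so light and heavy chain RNA kept nearly the same proportion. No B2m sequence word of 50 bases occurs in another gene's transcripts in GENCODE M21, and the gene overlaps Patl2 on the opposite strand, which had no reads.

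The classical genes and 2 abundant genes of the Q region, H2-Q6 and H2-Q7, share promoter letters, which are shown because class I genes are known to be regulated through this stretch. Promoters from RefSeq (GRCm38.p6) were found for 34 of the 50 genes, of which 20 were measured. The 200 bases before the first listed start are printed 5′ to 3′ on the gene's strand, and capitals mark matches on either strand to GGGATTCCC (a binding sequence of NF-kappa-B), GAANNGAAA (the core of interferon-stimulated response elements) or CTGATTGG (the Y box bound by NF-Y). None of the matches overlap.
H2-D1, chr17:35262894-35263093, plus strand: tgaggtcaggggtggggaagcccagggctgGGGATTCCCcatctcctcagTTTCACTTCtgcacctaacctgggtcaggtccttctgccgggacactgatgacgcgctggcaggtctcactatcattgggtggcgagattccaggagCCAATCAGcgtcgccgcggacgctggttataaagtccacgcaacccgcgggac
H2-K1, chr17:34000348-34000547, minus strand: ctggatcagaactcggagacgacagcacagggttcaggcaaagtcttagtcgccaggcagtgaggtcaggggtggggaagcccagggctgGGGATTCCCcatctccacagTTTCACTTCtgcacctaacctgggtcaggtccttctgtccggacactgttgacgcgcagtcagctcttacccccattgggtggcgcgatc
H2-Q6, chr17:35424650-35424849, plus strand: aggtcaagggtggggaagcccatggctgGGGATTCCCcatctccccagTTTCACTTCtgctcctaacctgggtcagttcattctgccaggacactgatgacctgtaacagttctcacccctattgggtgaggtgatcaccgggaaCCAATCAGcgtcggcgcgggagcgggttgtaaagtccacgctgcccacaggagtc
H2-Q7, chr17:35438955-35439154, plus strand: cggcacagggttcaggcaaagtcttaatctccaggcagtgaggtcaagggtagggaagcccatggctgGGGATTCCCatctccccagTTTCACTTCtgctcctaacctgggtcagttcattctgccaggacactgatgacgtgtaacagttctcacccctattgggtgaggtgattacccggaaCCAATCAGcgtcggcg
In these printed stretches the NF-kappa-B and interferon letters stand in the same order and close together in each gene. The Y box of H2-K1 lies just after its first listed start and so outside the printed part.

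In the full windows of 250 bases before to 50 after the start, GGGATTCCC occurred in 0.37% of 27025 mouse promoters, GAANNGAAA in 7.56% and CTGATTGG in 4.31%. Both classical class I promoters held all 3. Of 21 nonclassical class I promoters, 2 held GGGATTCCC (H2-Q6 and H2-Q7), 6 held GAANNGAAA and 12 held CTGATTGG. The Y box letters were thus also common in genes without reads, as 7 of the 12 promoters belong to unmeasured genes such as H2-M10.1 and H2-M1. Related promoters are copies of one another and are not independent examples.

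Nonclassical class I genes have narrower roles, in signalling to natural killer cells, in presenting unusual ligands or as secreted forms. Of the 30 genes 14 were measured, 16 had no reads in either library, and the 16 include all 6 H2-M10 genes, H2-M10.5-ps1, H2-T3 and H2-Bl. Among the 14, 2 were at least 2-fold lower (H2-Q10 and H2-M9), 1 was higher (H2-T-ps) and 11 lay within 2-fold. Of all measured genes 19.4% were lower and 8.65% higher by this measure. The median difference of the 14 was -0.29 (range -2.09 to 1.32), and -0.16 over the 9 at or above the floor in both libraries. It was -0.85 over the 7 with at least 80% of their 50-base words in no other gene. Of these 7, H2-K2, H2-Q10, H2-M9 and H2-Q1 were under the floor in the aGVHD_V library, and -0.85 is the value of H2-Q1. The summed FPKM of the group was 686 (BMT) against 592 (aGVHD_V), a ratio of 0.863. It made up 29.1% and 26.5% of all class I heavy chain FPKM.

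The Q region, which lies next to H2-D1 and encodes the Qa-2 antigen among others, supplied most of the nonclassical RNA, at 21.2% and 18.9% of heavy chain FPKM. H2-Q6 (chromosome 17, 35424850 to 35430055) had 5231 reads and an FPKM of 207 in the BMT library, against 3468 reads and 156 in the aGVHD_V library. Its ratio of 0.754 (0.584 to 0.964) was the only one among the measured members whose interval excluded 1. H2-Q4 was at 124 against 111 (ratio 0.895, 0.678 to 1.17), and it overlaps an antisense gene with 110 and 160 reads. H2-Q7, a gene of the Qa-2 antigen, was at 82.8 against 91.3 (1.10, 0.866 to 1.39), so it did not share the lower value of H2-Q6. The ratio of H2-Q7 to H2-Q6 was 0.400 (0.343 to 0.467) in the BMT library and 0.585 (0.429 to 0.800) in the aGVHD_V library, a change of 1.46 times (1.05 to 2.04). H2-Q5, annotated as a polymorphic pseudogene, was at 79.1 against 62.3 (0.787, 0.483 to 1.23).

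How reads were divided among the Q genes is uncertain. Of the 50-base words in their M21 transcripts, 68.0% for H2-Q6, 73.6% for H2-Q7, 63.6% for H2-Q5 and 78.2% for H2-Q4 occur in no other gene, and H2-Q6 shares 13.95% of its words with H2-Q7. The corresponding values are 87.2% for H2-D1 and 90.4% for H2-K1. The summed reads of the Q region do not depend on division within it, although shared reads that may have been left uncounted would be missing. The read rate of the region had a ratio of 0.879 (0.767 to 1.01). H2-Q10, which encodes a secreted class I protein of the liver, had 254 BMT reads (FPKM 4.82) and 35 aGVHD_V reads (0.755). H2-Q1 had 65 and 18 reads (1.87 and 0.590). Both were under the floor in the aGVHD_V library.

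In the T region, H2-T23 encodes Qa-1, a ligand of the inhibitory receptor CD94/NKG2A of natural killer cells. H2-T23 (chromosome 17, 36029773 to 36032855) was at an FPKM of 88.8 against 75.3, with a ratio of 0.848 (0.616 to 1.15). H2-T22, which can be recognised by gamma-delta T cells, was at 29.4 against 31.8 (1.08, 0.671 to 1.69), and its close relative H2-T10 was at 8.22 against 9.33 (1.13, 0.434 to 2.63). H2-T22 shares 31.3% of its words with H2-T10, and their separate values are therefore uncertain. H2-T24 was at 20.9 against 27.8 (1.33, 0.677 to 2.47). No interval in this region excluded 1, and the summed T region had a read rate ratio of 0.979 (0.779 to 1.22). The pseudogene H2-T-ps had 11 and 41 reads (0.850 and 3.60), both under the floor.

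Of 14 M region genes 2 were measured. H2-M3, which presents N-formylated peptides of bacteria and mitochondria, had 307 reads and an FPKM of 17.6 in the BMT library, against 210 reads and 13.7 in the aGVHD_V library (ratio 0.778, 0.223 to 2.14). H2-M9 had 57 BMT reads (3.26) and no aGVHD_V reads. In the latter library the floor corresponds to an FPKM of 8.58, so its level there could not be bounded below that of the BMT library. The pseudogene H2-K2, next to H2-K1, had 219 and 94 reads (17.2 and 8.40).

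The remaining class I partners load peptides. Tap1 and Tap2, the subunits of the peptide transporter, were at an FPKM of 51.5 and 25.8 in the BMT library and 44.9 and 26.4 in the aGVHD_V library. The ratio between the libraries was 0.873 (0.646 to 1.16) for Tap1 and 1.02 (0.624 to 1.63) for Tap2. Tap1 RNA exceeded Tap2 RNA by 1.998 times (1.55 to 2.59) and 1.70 times (1.04 to 2.85). Tapbp, the tapasin that bridges the transporter to the heavy chain, was at 88.2 against 72.2 (0.818, 0.604 to 1.09). Tapbp overlaps Zbtb22 on the same strand, and Tap1 overlaps the proteasome gene Psmb9 on the opposite strand over 212 bases. All 4 partners lay within 2-fold, and all 4 intervals included 1.

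**Figure D2:**
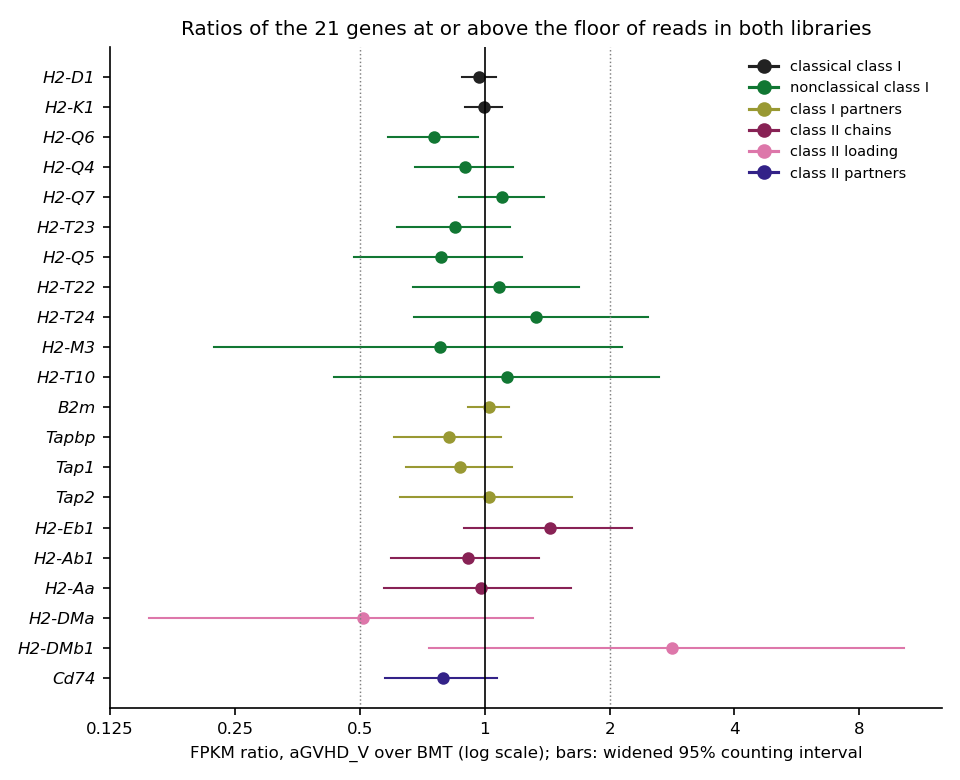
FPKM ratio of aGVHD_V to BMT (log scale) with its widened 95% counting interval for the 21 genes at or above the floor of reads in both libraries, coloured by group, with dotted lines at 0.5 and 2. The intervals narrow with read number, from 0.882 to 1.07 for H2-D1 to 0.732 to 10.3 for H2-DMb1, and that of H2-Q6 alone excludes 1.

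Other genes of the class I pathway showed similar small differences. All 6 genes of heavy chain folding, trimming and editing lay within 2-fold, with a median of -0.16. Calr, the chaperone calreticulin, was at 227 against 184 (ratio 0.811, 0.665 to 0.984), and Erap1, which trims peptides, at 11.4 against 10.2. All 5 genes of peptide supply, the immunoproteasome and its activator, lay within 2-fold, with a median of 0.26. Of all 12942 measured genes 9311 lay within 2-fold. Psme1, an activator subunit, was at 72.6 against 100.2 (1.38, 0.988 to 1.90), and Psmb8, a catalytic subunit, at 35.2 against 42.2.

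The class II chains form the surface molecules A (H2-Aa with H2-Ab1) and E (the alpha chain from the Ea gene with H2-Eb1). Their summed FPKM was 217 (BMT) against 227 (aGVHD_V), well under the 2356 and 2231 of the class I heavy chains. Of the 7 genes, 4 were measured, and H2-Eb2, H2-Pa and H2-Pb had no reads. H2-Aa (chromosome 17, 34282744 to 34287827) had 1055 reads and an FPKM of 46.4, against 910 reads and 45.5. H2-Ab1 was at 87.3 from 1733 reads against 79.4 from 1385. Their ratios of 0.981 (0.572 to 1.61) and 0.909 (0.594 to 1.35) included 1. H2-Eb1 (chromosome 17, 34305877 to 34316199) was at 66.7 from 958 reads against 96.0 from 1212 reads, with a ratio of 1.44 (0.889 to 2.27) that also included 1 and fell to about 1 with equal FPKM sums (difference -0.05).

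The proportions between class II chains differed between the libraries by less than counting error. H2-Ab1 exceeded H2-Aa by 1.88 times (1.401 to 2.54) in the BMT library and by 1.74 times (0.969 to 3.20) in the aGVHD_V library. H2-Eb1 stood at 0.764 of H2-Ab1 (0.560 to 1.03) and at 1.21 (0.699 to 2.08), a change of 1.58 times (0.877 to 2.86).

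Both of the measured class II chains with a RefSeq promoter held the Y box letters, which are known as part of the module through which the class II transactivator acts, and they are shown for comparison with the class I stretches.
H2-Aa, chr17:34287824-34288023, minus strand: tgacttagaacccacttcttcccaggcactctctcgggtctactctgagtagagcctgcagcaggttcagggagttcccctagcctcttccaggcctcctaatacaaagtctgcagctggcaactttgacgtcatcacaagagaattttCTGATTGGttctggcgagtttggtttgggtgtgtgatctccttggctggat
H2-Eb1, chr17:34305667-34305866, plus strand: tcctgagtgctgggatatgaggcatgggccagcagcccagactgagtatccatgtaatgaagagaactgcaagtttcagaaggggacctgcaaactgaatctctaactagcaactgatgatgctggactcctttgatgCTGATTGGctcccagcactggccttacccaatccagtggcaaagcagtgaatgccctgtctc
Of the 8 class II promoters found, 4 held CTGATTGG, whereas none held the NF-kappa-B or the interferon letters searched.

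H2-Ea-ps is of interest because of the parents of these mice. In H-2b mice the Ea gene is defective, and the annotation of the C57BL/6 genome lists it as a pseudogene, whereas H-2d mice carry a working copy. The recipients thus have a working copy and the donors have none. H2-Ea-ps (ENSMUSG00000036322, chromosome 17, 34342933 to 34344643) had 137 reads and an FPKM of 16.5 in the BMT library, against 44 reads and 6.02 in the aGVHD_V library. Its difference of -1.32 was at least 2-fold, but the reads in the aGVHD_V library lay under the floor of 132, and the interval of the ratio ran from 0.00840 to 2.58. Relative to H2-Eb1 it stood at 0.247 (0.112 to 0.485) in the BMT library and 0.0627 (0.00153 to 0.380) in the aGVHD_V library. The interval of the change between these values ran from 0.0309 to 2.08 and included 1. The cells and the haplotype from which these reads came were not tested.

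The class II loading genes DM and DO work in the endosome, where DM exchanges the invariant chain fragment for peptide and DO restrains DM. Of 5 genes 4 were measured, 1 of them at least 2-fold lower and 2 higher, beside 19.4% and 8.65% of all measured genes, and H2-Ob had no reads. H2-DMa, the DM alpha chain, was at an FPKM of 24.6 from 489 reads against 12.5 from 219 reads (ratio 0.509, 0.155 to 1.31). H2-DMb1 (chromosome 17, 34153072 to 34160230), a DM beta chain, was at 5.28 from 95 reads against 14.9 from 236 reads (2.83, 0.732 to 10.3), the only gene at the floor in both libraries that passed 2-fold. H2-DMb2, the second beta chain, had 35 reads (1.69) and none, under the floor in both libraries. In the aGVHD_V library its floor corresponds to an FPKM of 7.24, so its level there could not be bounded below that of BMT.

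The measured ratio of DM chains was lower in the aGVHD_V library, on few reads and with overlapping intervals. H2-DMa stood at 3.53 times (1.68 to 8.24) the summed beta chains in the BMT library and at 0.840 (0.196 to 3.51) in the aGVHD_V library. The change was 0.238 times, with an interval (0.0576 to 0.983) that ended just below 1 and is approximate at so few reads. Several such ratios were examined with no allowance for their number. H2-DMb1 shares 22.7% of its words with H2-DMb2. Summing the beta chains limits that ambiguity for reads divided between them, but not for shared reads that may have been left uncounted. Between the libraries the read rate ratio of the summed beta chains was 2.06 (0.571 to 6.64), which included 1. H2-Oa, the DO alpha chain, had 15 and 61 reads (0.941 and 4.35), under the floor in both libraries, and overlaps an antisense gene without reads.

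**Figure D3:**
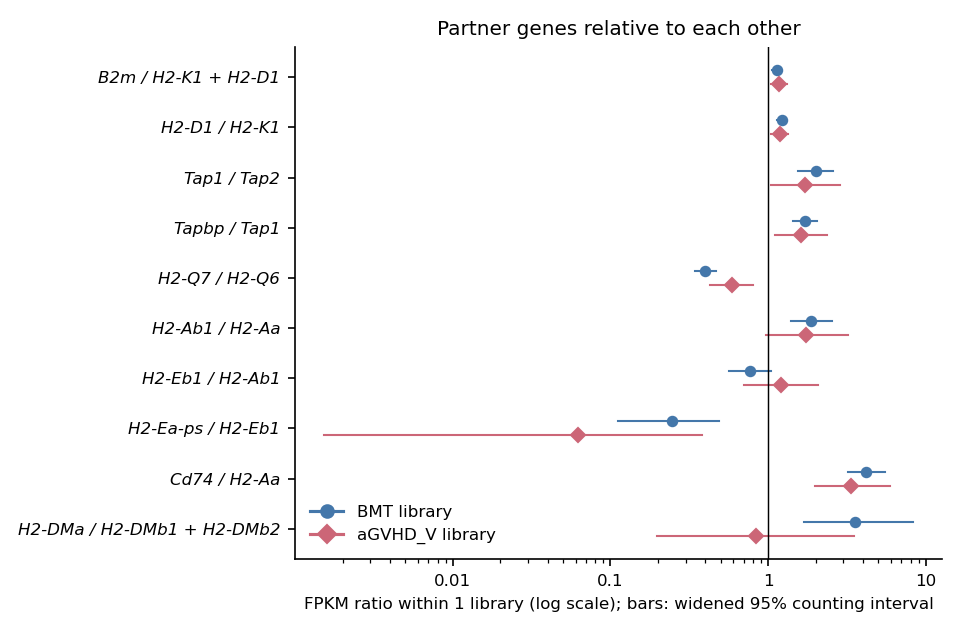
FPKM ratio between partner genes within the BMT library (circles) and within the aGVHD_V library (diamonds) on a log scale, with widened 95% counting intervals. The 10 pairs drawn include B2m over H2-K1 and H2-D1 (1.13 and 1.18), whose symbols nearly coincide, and H2-Q7 over H2-Q6 (0.400 and 0.585), H2-DMa over its beta chains (3.53 and 0.840) and H2-Ea-ps over H2-Eb1 (0.247 and 0.0627), whose symbols stand apart. For H2-Ea-ps over H2-Eb1 the interval of the change between the libraries included 1.

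Cd74, the invariant chain that guides class II molecules to the endosome, had the highest level of the class II genes. It was at an FPKM of 193 from 3305 reads against 153 from 2303 reads, with a ratio of 0.793 (0.576 to 1.07). Relative to H2-Aa it stood at 4.16 (3.20 to 5.47) and 3.36 (1.99 to 5.90). Ciita, the transactivator on which class II transcription depends, had 28 BMT reads (0.242) and no aGVHD_V reads. Both are under the floor, so its level could not be compared. Cd74 overlaps the microRNA gene Mir5107 on the same strand, which had 0 and 32 reads.

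Beside these similar class II levels, the markers of the cells that usually carry class II moved unevenly. The 8 B cell markers had a summed FPKM of 64.2 (BMT) against 2.68 (aGVHD_V). Of the 6 measured ones 5 were at least 2-fold lower, beside 19.4% of all measured genes. Cd79b, Blk and Pax5 had no reads in the aGVHD_V library, whereas Cd22 was at 1.03 and 1.17. Cd79a, a chain of the B cell receptor, had 393 and 3 reads. All 6 measured B cell markers were under the floor in the aGVHD_V library, and the intervals of Blk and Cd22 included 1. The 8 dendritic cell markers were low in both, at 9.11 and 6.65 in sum, with Zbtb46 at 4.58 and 4.64, and Cd209a at 0 in both. Itgax and Clec10a had 93 and 49 BMT reads and none in the aGVHD_V library. Both read numbers are below the aGVHD_V floor of 132, so their levels there could not be bounded below those of BMT. The 10 monocyte and macrophage markers summed to 1212 and 1271, mostly from Lyz2 (942 and 992), and 9 of them lay within 2-fold. Their median difference was nevertheless -0.48 (range -1.27 to 0.38). Mrc1 was the 1 marker past 2-fold, at 8.22 against 2.83 (ratio 0.344, 0.0964 to 0.910). Over the same libraries the 12 class II genes summed to 249.4 and 259. The part of any of these cells in the class II values was not tested.

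**Figure D4:**
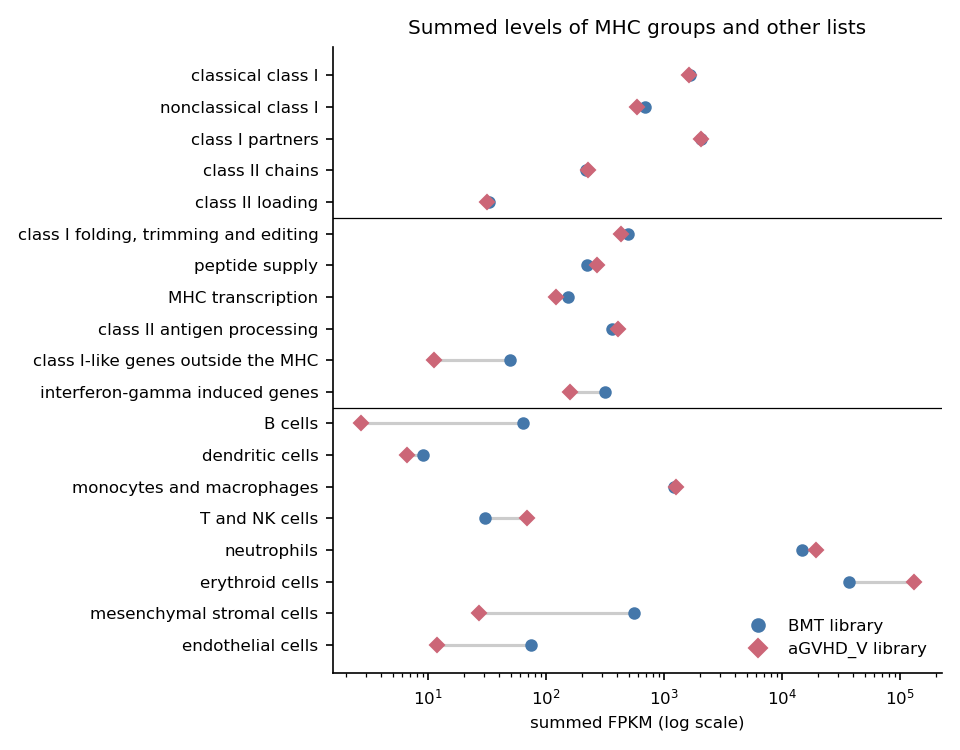
Summed FPKM (log scale) in the BMT library (circles) and the aGVHD_V library (diamonds) of 5 MHC groups (top), 6 other pathway lists (middle) and 8 lists of cell type markers (bottom). The MHC groups nearly coincide, whereas the sums of B cell (64.2 and 2.68), mesenchymal (553 and 27.1) and erythroid (37100.3 and 132008) markers lie far apart.

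Markers of T and natural killer cells were low in both libraries. They summed to 30.5 and 68.9 over 9 genes. In the aGVHD_V library 2 of 7 measured ones were at least 2-fold higher, beside 8.65% of all measured genes. Trbc2, a constant segment of the T cell receptor, had 102 and 281 reads (12.2 and 38.1), with a ratio of 3.13 (0.906 to 10.5) that included 1, and Cd3d had 21 and 131 reads, under the floor. Cd8a stood at 4.85 and 5.54.

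Of 8 class II antigen processing genes 7 were measured and 1 was at least 2-fold lower, beside 19.4% of all measured genes. Ctsl, a cathepsin, was at 21.4 against 9.02 (ratio 0.421, 0.224 to 0.732). Ctss, the cathepsin that cleaves the invariant chain in most antigen-presenting cells, was at 64.1 against 49.2 (0.769, 0.420 to 1.33). March8, a ubiquitin ligase of membrane proteins, was at 21.9 against 38.5 (1.76, 1.35 to 2.27), and Ctsd, another cathepsin, at 93.3 against 132.6 (1.42, 1.07 to 1.87). Ctsb, likewise a cathepsin, was at 94.3 against 104.2.

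Class I-like genes encoded outside the MHC had low levels. Of 7 such genes 5 were measured, of which 3 lay past 2-fold below the BMT level and none above it, beside 19.4% and 8.65% of all measured genes. The difference between this list and the H2 genes was not tested. Their median difference was -1.65 and the sum of the list was 49.4 against 11.2. Cd1d1, which presents lipids to natural killer T cells, had 387 reads (12.4) and 32 reads (1.17). Fcgrt, the receptor that recycles IgG and albumin, had 716 reads (28.1) and 107 reads (4.77), and Hfe, a regulator of iron uptake, 199 reads (4.59) and 30 reads (0.788). The reads of these 3 genes in the aGVHD_V library lay under the floor. Procr, the endothelial protein C receptor, was at 2.92 and 3.93, and Mr1, which presents microbial metabolites, at 1.09 and 0.502. Procr and Mr1 were likewise under the floor in the aGVHD_V library.

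Regulators of MHC transcription mostly lay within 2-fold, at 10 of 11 genes, beside 9311 of all 12942 measured genes. Their median difference was -0.24. Nlrc5, the class I transactivator, was at 18.5 from 1907 reads against 14.9 from 1353 reads (ratio 0.807, 0.527 to 1.201). Irf1, an interferon-induced transcription factor, was at 47.9 against 29.4, and its ratio of 0.614 (0.397 to 0.919) excluded 1. The exception past 2-fold was Rfx5, a subunit of the factor bound to the X box, with 112 and 14 reads (1.68 and 0.239). Its aGVHD_V reads lay under the floor and the interval of its ratio included 1.

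Genes known as strong targets of interferon-gamma were not uniform. Of 10, 9 were measured, 4 of these lay at least 2-fold lower and none higher in the aGVHD_V library, beside 19.4% and 8.65% of all measured genes. The median difference was -0.75. Cxcl9, a chemokine that attracts T cells, was at 92.5 from 3382 reads against 9.33 from 300 reads, 9.91-fold lower (4.69 to 25.3). Iigp1, an interferon-induced GTPase, was 3.25-fold lower (57.7 against 17.8, 1.86 to 6.17), and Gbp3, another, 2.99-fold lower (22.96 against 7.67, 1.31 to 8.40). Socs1, an inhibitor of interferon signalling, had 169 reads (4.79) and none, and its interval included 1. Igtp, a GTPase of the same family as Iigp1, was at 59.1 against 54.6 (ratio 0.925, 0.581 to 1.43). The classical class I genes and Tap1, which belong to the same response, lay within 2-fold in the same libraries.

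**Figure D5:**
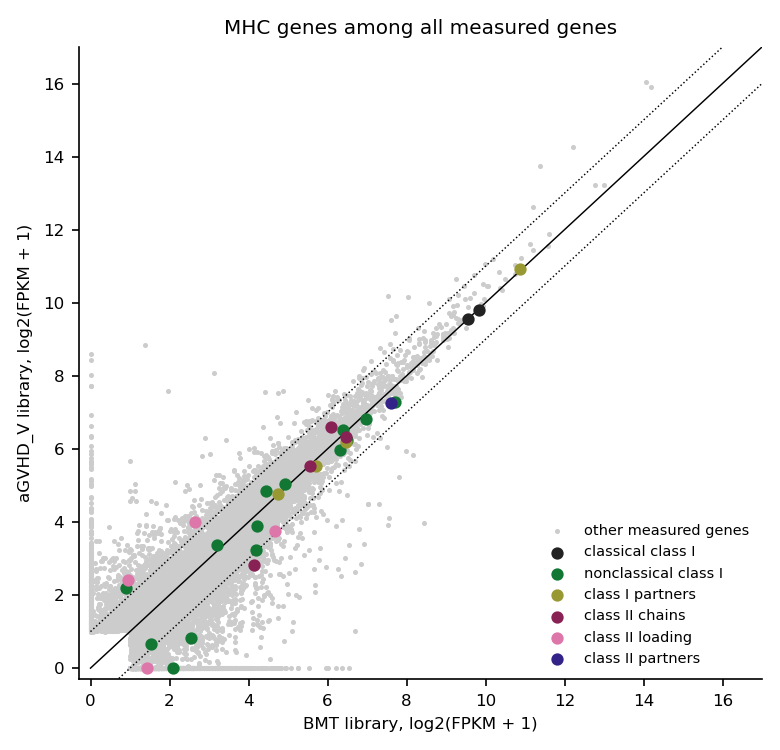
Level of every measured gene in the BMT library (x axis) and the aGVHD_V library (y axis), as log2(FPKM + 1), with members coloured by group, a solid line at equality and dotted lines at a difference of 1 either way. Members with an FPKM above 40 in the BMT library, class I and class II alike, lie between the dotted lines.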

How the data were processed

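RNA levels of 2 libraries were analysed, assigned to the groups BMT and aGVHD_V by their titles. The table holds FPKM per gene as deposited by the authors. The submitters' processing notes name edgeR 3.18.1, GRCm38 and mm10, and for the aligner, the counter and its strand setting nothing is given in the sources used here. Of the value columns, 1 matched no sample and was left out. FPKM multiplied by gene length were whole multiples of a fixed step for 100% of values above 0 (tolerance 0.05), which gave the reads. The recovery, the 2-fold calls and the intervals without widening were tested on simulated data. The widening used for the printed intervals was not part of that test. Intervals are conditional binomial (Clopper-Pearson), with reads divided by the library's modal read number (window of 7 values, reads under 4 left out). Sharing of 50-base words was counted over GENCODE M21 transcripts. A change of a within-library ratio has an interval from its log-scale standard error, which is approximate at few reads. No allowance was made for the number of ratios examined. 2 symbols stored as dates, March1 and March8, were matched by gene ID. Python 3.11.15, pandas 2.3.3 and scipy 1.17.1 were used. The members, lists and alternatives were chosen with earlier results of these data known. Every measured member is named, and from each other list up to 4 genes with the largest difference and the most abundant gene; Cd209a, Cd8a, Nlrc5, Procr, Ctsb, Pax5, Tek and unmeasured members were added after their values were seen. Some genes that this rule names are not reported here.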

Additional observations from a re-analysis of the deposited data

How the results depend on the processing

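No paired analysis was possible because each group has 1 library, and leaving out a library leaves no comparison. The count of 4 lower and 3 higher genes became 0 and 0 with a pseudocount of 5, 1 and 1 with an FPKM minimum of 5, and 7 and 2 with equal FPKM sums. Under alternatives chosen after seeing the data, setting genes without reads to their floor gave 2 and 5, genes at the floor in both libraries gave 0 and 1, and genes with at least 80% of their words unshared gave 3 and 1. The summed ratio of classical class I (0.98), nonclassical class I (0.86) and class II (1.04) genes became 0.66, 0.58 and 0.695 with equal FPKM sums. With hemoglobin, mitochondrial and ribosomal protein genes left out of the scaling, the classical and nonclassical values were 0.87 and 0.77, and with all recovered reads as library sizes 0.83 and 0.73. The median of the classical pair (-0.03) became -0.60, -0.20 and -0.27 under these scalings and -0.055 with centring. At their floor H2-DMb2 and H2-M9 reversed (differences 1.62 and 1.17), since that floor lies above their BMT level. Of the 29 single differences, 10 moved beyond their counting interval with equal FPKM sums, and none did under centring, upper-quartile scaling or either pseudocount. The median of the nonclassical genes (-0.29) became -0.85 over the 7 with at least 80% of their words unshared. That is the value of H2-Q1, which was under the floor in the aGVHD_V library. No fold is given for members under the floor of 42 (BMT) or 132 (aGVHD_V) reads.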
